A study of Homo sapiens with 6 samples.

Results

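The genes described here encode the stress sensors of the endoplasmic reticulum (ER), their closest partners and the kinases that phosphorylate the translation initiation factor eIF2 on its alpha subunit. They were taken by symbol: ERN1, XBP1, ATF6, ATF6B, WFS1, EIF2AK1, EIF2AK2, EIF2AK3, EIF2AK4 and PPP1R15B. All 10 were found among the 59609 gene names of the deposited tables, and all 10 passed the filter on low values, which 16600 genes passed.

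RNA was measured in 95D, a human lung cancer cell line labelled as wild type. Cells were seeded for 24 h in complete medium and then kept for 48 h in control DMEM, in glucose-free DMEM or in glutamine-free DMEM. Both deprived media held 10% dialyzed serum, whereas the routine medium held 10% fetal bovine serum and no dialyzed serum is named for the control. Loss of a nutrient and the change of serum therefore cannot be told apart in either comparison with control, while cells of both deprivations, when compared directly, had dialyzed serum. Control and glucose-deprived cells gave 2 libraries each and glutamine-deprived cells gave 1. Whether replicates came from separate cultures is not in the labels. Each p-value therefore refers to the spread among these libraries alone, which may be technical.

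In the unfolded protein response, unfolded protein in the ER lumen is sensed by membrane proteins. IRE1 alpha, the product of ERN1, is a kinase and endonuclease that splices the XBP1 mRNA in the cytoplasm, so that it encodes an active transcription factor. ATF6 and its relative ATF6B travel to the Golgi, where proteases release their transcription factor domains. PERK, the product of EIF2AK3, phosphorylates eIF2 alpha, which lowers translation in general and raises that of ATF4. The same residue is phosphorylated by GCN2 (EIF2AK4), which senses amino acid shortage through uncharged tRNA, by PKR (EIF2AK2), which senses double-stranded RNA and is induced by interferon, and by HRI (EIF2AK1), which senses heme shortage and mitochondrial stress. The RNA levels below say nothing of splicing, cleavage or phosphorylation, the steps by which these proteins act.

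Levels are FPKM (fragments normalised to transcript length and to the number mapped) divided by a scaling factor per library. Means carry the SD of n = 2 libraries, and values without glutamine are those of its single library. Changes were computed as log2(FPKM + 1) with their SE, a scale that understates the change of genes of low level, and adjusted p-values are from limma over all 16600 genes. Depth inferred from the values was 34530000 to 48930000 reads per library. The lowest member libraries rested on about 549 reads for WFS1 and 596 reads for ERN1, a counting error of 4.27% and 4.10%, and the other members had errors of at most 3.66%. Log2 levels of replicates correlated across genes with r = 0.991 in control and 0.985 without glucose, against 0.954 to 0.961 between groups. Genes are not independent replicates. The epithelial keratin genes KRT8 and KRT18 were present, at 4.15 to 5.51 and 16.0 to 21.7 FPKM, whereas EPCAM stayed at or below 0.138 FPKM, CDH1 at or below 0.250 FPKM and KRT19 was at 0. The lung lineage factor gene NKX2-1 stood at 0.709 to 1.17 FPKM, and of 18 markers of other cell types 3 reached 1 FPKM: SYP, TUBB3 and COL1A1. The summed level of the 3 neuronal markers was 3.35 to 3.85 FPKM in control, 6.50 to 8.10 without glucose and 5.49 without glutamine. That of the 4 fibroblast markers was 0.623 to 0.694 FPKM in control, 0.400 to 0.407 without glucose and 1.91 without glutamine. The part of these in the results was not tested.

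Per unit of length, the genes covered a wide range in control cells. XBP1 (44.8 FPKM) and PPP1R15B (37.2) were the most abundant, followed by EIF2AK1 (25.5), ATF6 (12.3), EIF2AK2 (9.14), ATF6B (6.85), EIF2AK4 (5.67), EIF2AK3 (4.97), WFS1 (3.47) and ERN1 (1.62). No neighbours in that order overlapped between the control libraries. Without glucose the values of ATF6B and EIF2AK2 overlapped, and EIF2AK3 lay above EIF2AK4. Without glutamine EIF2AK3 lay below both EIF2AK4 and WFS1, with only ERN1 lower.

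**Figure D1:**
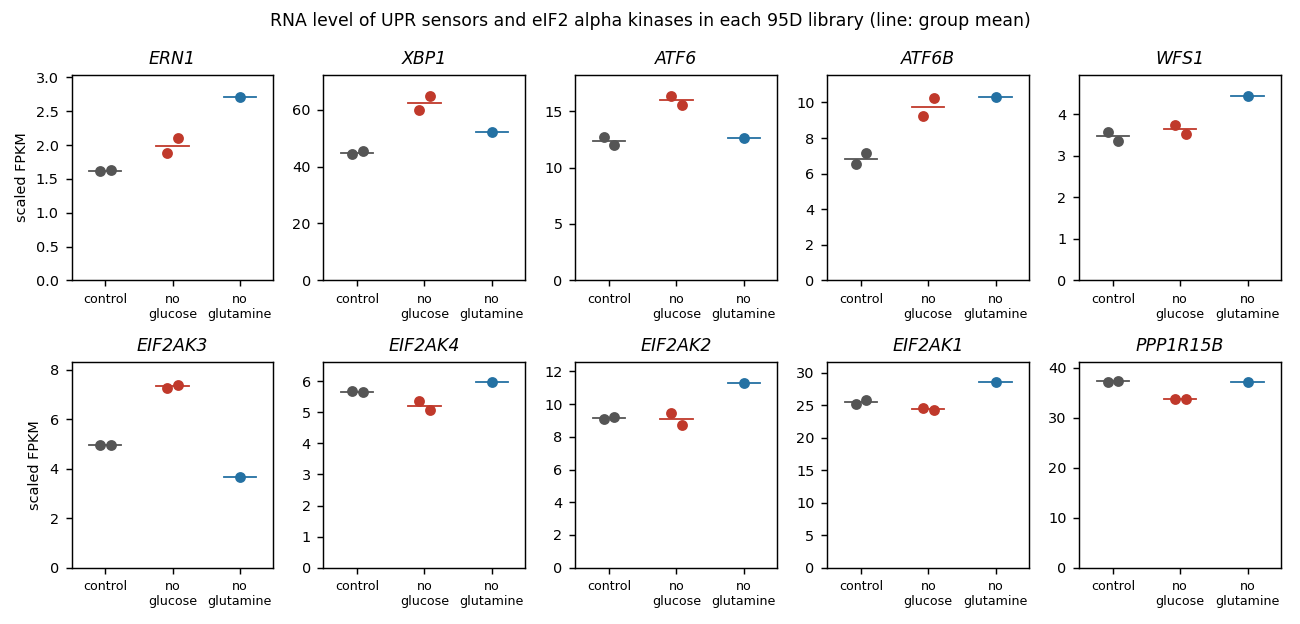
Scaled FPKM (vertical axes, each from 0) of the 10 genes in each library with control medium, without glucose or without glutamine; points are libraries and lines are group means. EIF2AK3 is at 4.96 and 4.98 FPKM in control, higher without glucose and lower without glutamine, while ERN1 is highest in the library without glutamine.

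Without glucose the RNA of EIF2AK3, XBP1, ATF6B, ATF6 and ERN1 was called higher than in control and that of PPP1R15B lower. The call of ERN1 was lost in 7 of 14 alternatives run and that of PPP1R15B in 5. Of the 10 genes, 5 were called higher, where 26.6% of all genes tested were, and 1 lower, where 28.2% were. On the log2(FPKM + 1) scale none was called with a change of at least 1.5-fold, as 12.8% of all genes were. The median log2 change of the 10 was 0.12, against 0.03 over all genes. Both glucose-deprived libraries lay above both controls for 5 of the genes, which held for 40.3% of all genes, and below both for 3, which held for 38% of all genes. With 2 libraries against 2, an exact permutation test of any single gene cannot go below p = 0.333, so the calls rest on the spread that limma pools over genes. RNA was taken from whole cultures, so a change in every cell and a change in the share of cells cannot be told apart.

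Glutamine deprivation gave another pattern. ERN1, ATF6B, WFS1, EIF2AK2, XBP1 and EIF2AK1 were called higher and EIF2AK3 lower. That is 6 higher, where 24.7% of all genes were, and 1 lower, where 26.3% were. The calls of WFS1, EIF2AK2, XBP1 and EIF2AK1 did not hold when either control library was left out, where fewer of all genes were called as well. Upper-quartile scaling called 2 higher and 2 lower, where 52.2% of all genes were called, 31.2% of these higher. On the log2(FPKM + 1) scale again none was called at 1.5-fold or more, against 15.9% of all genes. As plain ratios of FPKM to control, ERN1 was at 1.67 and ATF6B at 1.51. The median log2 change was 0.19 for the 10 genes and 0.05 for all. With 1 library and no replicate check, its spread was taken to equal that of the other libraries. Both comparisons share the 2 control libraries.

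Set directly against glucose deprivation, the library without glutamine differed in 9 of the 10 genes. ERN1, EIF2AK1, EIF2AK2, EIF2AK4, WFS1 and PPP1R15B were higher, 6 genes where 22.5% of all genes were higher. EIF2AK3, ATF6 and XBP1 were lower, 3 genes where 22% of all genes were lower. EIF2AK3 alone was called with at least a 1.5-fold difference, as 11.3% of all genes were. Of these 9 calls, those of EIF2AK4 (adjusted p = 0.0427), WFS1 (0.0404) and PPP1R15B (0.0493) were close to the threshold. These and the call of XBP1 did not hold when either control library was left out, where fewer of all genes were called as well. Scaling to the total left 3 called and 25.2% of all genes, against 44.5% here, and dropping the filter left 3 called and 17.4% of all genes.

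**Figure D2:**
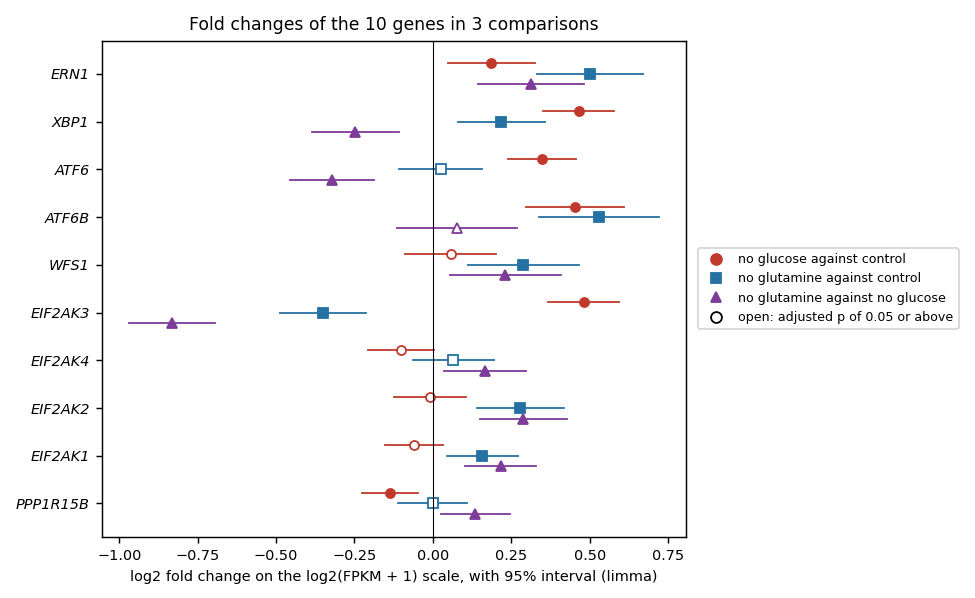
Log2 fold change (horizontal axis) of each gene with its 95% interval, for glucose deprivation against control (circles), glutamine deprivation against control (squares) and the deprivations against each other (triangles); open symbols have an adjusted p of 0.05 or above. EIF2AK3 is the gene whose changes against control have opposite signs with both called, 0.48 and -0.35.

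EIF2AK3, on chromosome 2 from 88556741 to 88627576 on the minus strand (GRCh38, GENCODE release 29), encodes PERK. Its level was 4.96 and 4.98 FPKM in the controls, 7.27 and 7.37 FPKM without glucose and 3.67 FPKM without glutamine. The groups did not overlap, and replicates differed by far less than the groups did. The level without glucose was 1.47 times that of control (log2 change 0.48 ± 0.05, adjusted p = 0.000133). Without glutamine it was 0.740 times the control (-0.35 ± 0.06, adjusted p = 0.00184), and the deprivations differed by -0.83 ± 0.06 (adjusted p = 8.5e-05, 95% interval -0.97 to -0.69). With libraries scaled to their total, the value against control was -0.09 (adjusted p = 0.694), and the median of all genes was then 0.30. Relative to the median of all genes it lay between -0.40 and -0.39 under each of the scalings run. A scaling factor shifts most genes of a library almost alike, so this agreement was fixed in advance and is no check on the fall. An antisense gene, AC062029.1, shares exon bases with EIF2AK3. It stood at 1.26 and 1.32 FPKM as deposited in control, 2.36 and 1.98 without glucose and 1.55 without glutamine, and as the strand setting is not given, reads of both cannot be told apart where they overlap.

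No gene met the rule for a search of similar patterns, which asked for a called change of at least 1.5-fold against control on the log2(FPKM + 1) scale. EIF2AK3 was searched all the same, a choice made after its values were seen. Among 6032 other genes with a mean log2(FPKM + 1) of at least 3, those nearest to it over the 5 libraries, by the Euclidean distance of centred log2 levels, were THOC6 (distance 0.0272), NPC2 (0.0320) and ZFAS1 (0.0374). THOC6 encodes a subunit of the mRNA export complex THO and went from 20.1 and 20.1 FPKM in control to 27.9 and 28.9 without glucose and 15.3 without glutamine. NPC2 encodes a lysosomal cholesterol-binding protein, and ZFAS1 is a small nucleolar RNA host gene.

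Among the other eIF2 alpha kinases, EIF2AK1 (chromosome 7, 6022244 to 6059230, minus strand) stood at 25.3 and 25.8 FPKM in control, 24.7 and 24.3 without glucose and 28.6 without glutamine. Its rise without glutamine (0.16 ± 0.05 log2, adjusted p = 0.0275) was -0.0015 under upper-quartile scaling and lost its call without control replicate 1 (adjusted p = 0.182), without control replicate 2 (0.126) and with replicate number as a block (0.0887). Its exons overlap those of AIMP2 on the opposite strand, which was at 44.6 and 49.97 FPKM as deposited in control and 30.6 without glutamine. Without glucose EIF2AK1 did not pass the test (95% interval of the log2 change -0.15 to 0.03, adjusted p = 0.243), though upper-quartile scaling called it lower (-0.14, adjusted p = 0.0196). The deprivations differed by 0.22 ± 0.05 (adjusted p = 0.00859), a call lost under upper-quartile scaling (0.0527) and, with 0.1, when scaled to the total.

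EIF2AK2 (chromosome 2, 37099210 to 37157065, minus strand) was at 9.10 and 9.18 FPKM in control, 9.48 and 8.70 without glucose and 11.3 without glutamine. The glucose-deprived libraries lay on either side of the controls (log2 change between -0.12 and 0.11, adjusted p = 0.895). Without glutamine EIF2AK2 was 1.24 times the control (0.28 ± 0.06, adjusted p = 0.0059). The call was lost without control replicate 1 (adjusted p = 0.0714), without control replicate 2 (0.0675), under upper-quartile scaling (0.107) and without the filter (0.0710). Against glucose deprivation it was higher by 0.29 ± 0.06 (adjusted p = 0.0062), or 0.0747 without the filter. Its exons overlap those of GPATCH11 on the opposite strand, which stood at 10.3 and 10.3 FPKM as deposited in control, 10.0 and 8.95 without glucose and 8.49 without glutamine. Interferon acts on genes through the interferon-stimulated response element, whose core was searched as GAAA, any 2 bases and GAAA again on both strands of RefSeq promoter windows (GRCh38.p14, 250 bases before to 50 after the start). It is in 3.57% of 35116 windows and, among those of the 10 genes, in that of EIF2AK2 alone, across the start site. The stretch below, chr2:37156967-37156996 on the minus strand, shows it in capitals.
EIF2AK2: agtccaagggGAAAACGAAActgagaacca

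EIF2AK4 (chromosome 15, 39934146 to 40035591, plus strand) encodes GCN2, the kinase that responds to missing amino acids. Its level was 5.68 and 5.65 FPKM in control, 5.37 and 5.06 without glucose and 5.97 without glutamine. It passed the test in neither comparison with control: the 95% interval of the log2 change was -0.21 to 0.00 without glucose (adjusted p = 0.0946) and -0.06 to 0.19 without glutamine (adjusted p = 0.357). Upper-quartile scaling called it lower without glucose (-0.17, adjusted p = 0.0139), and no scaling factor called it higher without glutamine (0.21, adjusted p = 0.0300). The direct difference of 0.17 ± 0.06 (adjusted p = 0.0427) lost its call without control replicate 1 (0.115), control replicate 2 (0.118) or glucose deprivation replicate 2 (0.105).

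Within a library, shares of the kinases do not depend on the scaling. EIF2AK1 made up 52.7% to 57.7% of the summed FPKM of the 4 kinase genes in all 5 libraries. EIF2AK3 made up 11% and 10.9% in control, 15.5% and 16.2% without glucose and 7.41% without glutamine. The share of EIF2AK2 was 20.2% and 20.1% in control, 20.3% and 19.1% without glucose and 22.8% without glutamine, and that of EIF2AK4 lay between 11.1% and 12.6% throughout. The sum itself was 45.0 and 45.6 FPKM in control, 46.8 and 45.4 without glucose and 49.6 without glutamine. EIF2AK3 thus went from the least abundant of the 4 in control to the third without glucose, above EIF2AK4 in both libraries.

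**Figure D3:**
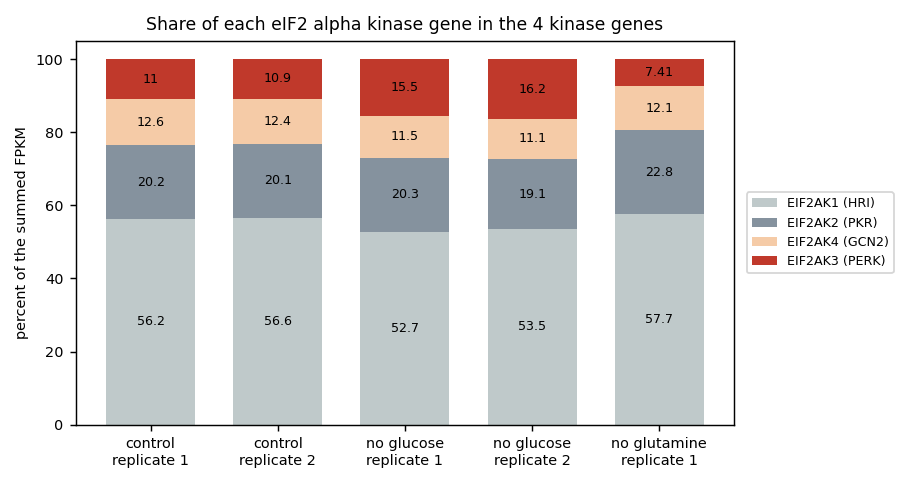
Share of each eIF2 alpha kinase gene in the summed FPKM of the 4 (vertical axis, percent; numbers in the bars are the shares) in each library. The EIF2AK3 share is 11% and 10.9% in control, 15.5% and 16.2% without glucose and 7.41% without glutamine, while EIF2AK1 stays above 50% in each.

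ERN1, on chromosome 17 from 64039142 to 64130819 on the minus strand, had the lowest level of the 10 genes. It stood at 1.61 and 1.63 FPKM in control, 1.88 and 2.10 without glucose and 2.71 without glutamine. No group overlapped another. Without glutamine the level was 1.67 times the control (0.50 ± 0.07 log2, adjusted p = 0.000909), and this call held in all 13 alternatives run, with adjusted p-values up to 0.026. The rise without glucose was smaller (1.22 times, 0.19 ± 0.06 log2, adjusted p = 0.0295). It lost its call without control replicate 1 (adjusted p = 0.166), without control replicate 2 (0.143) or without glucose deprivation replicate 2 (0.110), and in 4 of the other alternatives. The deprivations differed by 0.31 ± 0.07 (adjusted p = 0.00999), with 0.0627 without the filter and 0.0593 with the variance trend over the mean level. The ratio of EIF2AK3 to ERN1 RNA was 3.07 and 3.05 in control, 3.87 and 3.52 without glucose and 1.36 without glutamine.

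XBP1 (chromosome 22, 28794555 to 28800597, minus strand) was the most abundant of the 10 genes. Its values were 44.3 and 45.3 FPKM in control, 59.8 and 64.7 without glucose and 52.3 without glutamine. Both deprivations lay above both controls, and the library without glutamine lay below both without glucose. The level without glucose was 1.39 times the control (0.47 ± 0.05 log2, adjusted p = 0.000165), a call that held in all 14 alternatives. Without glutamine it was 1.17 times (0.22 ± 0.06, adjusted p = 0.0175), which lost its call without control replicate 1 (adjusted p = 0.149), without control replicate 2 (0.109), under upper-quartile scaling (0.465) and without the filter (0.114). The direct difference of -0.25 ± 0.06 (adjusted p = 0.0121) lost its call without either control (0.0599 and 0.0612), and it was -0.05 (adjusted p = 0.898) when libraries were scaled to their total. The ratio of XBP1 to ERN1 was 27.5 and 27.7 in control, 31.8 and 30.9 without glucose and 19.3 without glutamine. These gene-level values sum the unspliced and the spliced XBP1 mRNA.

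The ER stress response element (ERSE), searched as CCAAT, any 9 bases and CCACG, is the site through which ATF6 acts with the factor NF-Y. It was searched on both strands of the same promoter windows, which cover 9 of the 10 genes with 10 windows (EIF2AK1 had none and XBP1 had 2). The letters are in 0.0769% of all windows. Among the 10 genes XBP1 alone held them, 34 to 52 bases before the start, and among 19 of the ATF6 and XBP1 targets listed below with a window, 5 did: CALR, CRELD2, HSP90B1, HSPA5 and PDIA6. The stretches below set XBP1 (chr22:28800598-28800651) beside HSPA5 (chr9:125241386-125241439) and PDIA6 (chr2:10812848-10812901), all on the minus strand, with the element in capitals; they share its ends and differ in the spacer. Without glucose HSPA5 and PDIA6 rose by 1.07 ± 0.06 and 0.51 ± 0.04 log2 (adjusted p = 1.26e-05 and 6.07e-05), beside 0.47 ± 0.05 for XBP1. Without glutamine the signs differed: HSPA5 and PDIA6 changed by -0.25 ± 0.07 and -0.58 ± 0.05 log2 against control, beside 0.22 ± 0.06 for XBP1. Between the deprivations they differed by -1.33 ± 0.07 and -1.08 ± 0.05 (adjusted p = 4.31e-05 and 2.99e-05), beside -0.25 ± 0.06 for XBP1. The letters describe these windows and do not show binding.
XBP1: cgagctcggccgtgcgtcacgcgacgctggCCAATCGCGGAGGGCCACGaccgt
HSPA5: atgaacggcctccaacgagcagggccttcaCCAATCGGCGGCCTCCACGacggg
PDIA6: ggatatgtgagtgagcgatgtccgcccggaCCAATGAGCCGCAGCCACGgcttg

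The related element ERSE-II, searched as ATTGG, any 1 base and CCACG, was in 0.0541% of windows and in none of those of the 9 genes searched, and the UPRE, TGACGTGG, a site bound by XBP1 and ATF6, was in 0.729% and in none of these. The cyclic AMP response element, TGACGTCA, was in 1.85% of windows and likewise in none of these.

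ATF6 (chromosome 1, 161766294 to 161964070, plus strand) and ATF6B (chromosome 6, 32115264 to 32128253, minus strand) differed in their response to glutamine loss. ATF6 stood at 12.7 and 12.0 FPKM in control, 16.4 and 15.6 without glucose and 12.6 without glutamine. The last value lay within the range of the controls (95% interval of the log2 change -0.11 to 0.16, adjusted p = 0.736). The rise without glucose was 1.29-fold (0.35 ± 0.05 log2, adjusted p = 0.000537) and held in all 14 alternatives. The direct difference was -0.32 ± 0.06 (adjusted p = 0.00305), or -0.13 (adjusted p = 0.660) when scaled to the total, and it was not called without the filter (0.0512).

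ATF6B rose in both deprivations. It was at 6.51 and 7.18 FPKM in control, 9.23 and 10.3 without glucose and 10.3 without glutamine, so all deprived libraries lay above both controls. The changes were 0.45 ± 0.07 log2 (adjusted p = 0.000864) and 0.53 ± 0.08 (adjusted p = 0.00124). Neither call held without the filter on low values, where the adjusted p-values were 0.0533 and 0.0522. The deprivations did not differ past the threshold (95% interval -0.11 to 0.27, adjusted p = 0.483). The ratio of ATF6 to ATF6B was 1.95 and 1.67 in control, 1.77 and 1.52 without glucose and 1.22 without glutamine, and the control and glucose-deprived ranges overlapped. Exons of TNXB and AL662884.2 overlap ATF6B on the same strand. TNXB was at or below 0.153 FPKM as deposited, and AL662884.2 was at 0.616 and 0.383 in control, 1.02 and 2.23 without glucose and 1.90 without glutamine.

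WFS1 (chromosome 4, 6269849 to 6303265, plus strand) encodes wolframin, an ER membrane protein that promotes the degradation of ATF6. Its level was 3.58 and 3.35 FPKM in control, 3.75 and 3.54 without glucose and 4.45 without glutamine. Control and glucose-deprived libraries overlapped (95% interval of the log2 change -0.09 to 0.20, adjusted p = 0.472). The library without glutamine lay above all 4 others (0.29 ± 0.08 log2, adjusted p = 0.0150). That call was lost without control replicate 1 (adjusted p = 0.0601), control replicate 2 (0.110), the filter (0.0590) and under upper-quartile scaling (0.127). The direct difference of 0.23 ± 0.08 (adjusted p = 0.0404) was lost when any 1 of the control or glucose-deprived libraries was left out, with adjusted p-values of 0.065 to 0.125.

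PPP1R15B (chromosome 1, 204403387 to 204411791, minus strand) encodes CReP, the constitutive subunit that directs protein phosphatase 1 to eIF2 alpha and so opposes the kinases. It was at 37.2 and 37.2 FPKM in control, 33.8 and 33.8 without glucose and 37.2 without glutamine. Replicates were nearly identical, and the glucose-deprived libraries lay below the rest. The fall without glucose (-0.14 ± 0.04 log2, adjusted p = 0.0184) depended on the processing: it was -0.03 (adjusted p = 0.921) when scaled to the total and -0.09 (0.124) without a scaling factor. It also lost its call without control replicate 1 (0.105), without control replicate 2 (0.104) and with a replicate block (0.0522). Without glutamine the 95% interval was -0.11 to 0.11 (adjusted p = 0.993), with values of 0.16 (adjusted p = 0.0448) without a scaling factor and -0.16 (0.0208) under upper-quartile scaling.

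The inducible counterpart PPP1R15A, which encodes GADD34, moved far more. It was at 9.54 and 9.39 FPKM in control, 25.3 and 25.9 without glucose and 14.2 without glutamine (1.34 ± 0.04 and 0.54 ± 0.05 log2, adjusted p = 2.61e-06 and 0.000155). The ratio of PPP1R15A to PPP1R15B, free of the scaling, was 0.256 and 0.252 in control, 0.748 and 0.767 without glucose and 0.383 without glutamine. PPP1R15B thus remained the more abundant of the pair in every library. The core of the amino acid response element, TGATGCAA, is in 0.866% of promoter windows on either strand and, among the 10 genes, in that of PPP1R15B alone, 220 to 227 bases before the start. It is shown in capitals in chr1:204412017-204412064 on the minus strand.
PPP1R15B: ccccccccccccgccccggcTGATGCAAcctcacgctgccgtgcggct

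The genes that these sensors act on, or act with, were read from lists of known targets and partners. Targets of ATF6 and XBP1, mostly ER chaperones and degradation factors, were mostly called higher without glucose and mostly lower without glutamine, the latter not under scaling to the total. Without glucose 17 of 20 were called higher and 1 lower, where 26.6% and 28.2% of all genes were (median log2 change 0.60, all genes 0.03). The disulfide isomerase gene PDIA4 went from 83.2 ± 0.786 to 228 ± 0.354 FPKM and HSPA5, which encodes the chaperone BiP, from 79.0 ± 1.99 to 167 ± 13.8. SEC61B, a subunit of the ER translocon, fell (-0.37 ± 0.05 log2, adjusted p = 0.000426, or 0.179 when scaled to the total). Without glutamine 14 of the 20 were called lower and 4 higher, where 26.3% and 24.7% of all genes were (median -0.33, all genes 0.05). With libraries scaled to their total 3 were lower and 4 higher (median -0.04, all genes 0.30). There 36.7% of all genes were called, 91.1% of these higher. SYVN1, HERPUD1 and SSR1 were called higher in both deprivations and SEC61B lower in both. SDF2L1 (-0.92 ± 0.09 log2) and MANF (-0.85 ± 0.06), both ER proteins induced by stress, fell. SYVN1, the ubiquitin ligase of ER-associated degradation that also acts on ATF6, rose from 2.52 ± 0.125 to 5.52 FPKM, and HERPUD1 rose by 0.42 ± 0.05 log2. In the direct comparison 17 were lower without glutamine and 1 higher, where 22% and 22.5% of all genes were (median -0.93).

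Targets of ATF4 and CHOP, downstream of eIF2 phosphorylation, rose in both deprivations. Without glucose 12 of 15 were higher and 1 lower, where 26.6% and 28.2% of all genes were (median 0.79, or 0.51 without control replicate 2). DDIT3, which encodes CHOP, had a log2 change of 2.48 ± 0.05 and the stress gene NUPR1 of 1.63 ± 0.07, whereas the ER oxidase gene ERO1A fell (-0.19 ± 0.04, adjusted p = 0.00467), a call lost without control replicate 2 (0.0540) and with libraries scaled to their total (0.719). Without glutamine 14 of 15 were higher and 0 lower, where 24.7% and 26.3% of all genes were (median 1.08). CHAC1, which encodes a glutathione-degrading enzyme, rose from 0.926 ± 0.511 to 9.66 FPKM and SESN2, an inhibitor of mTORC1, from 15.7 ± 0.229 to 49.4 FPKM. Set directly against each other, 7 of the 15 were higher without glutamine and 5 lower, where 22.5% and 22% of all genes were.

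**Figure D4:**
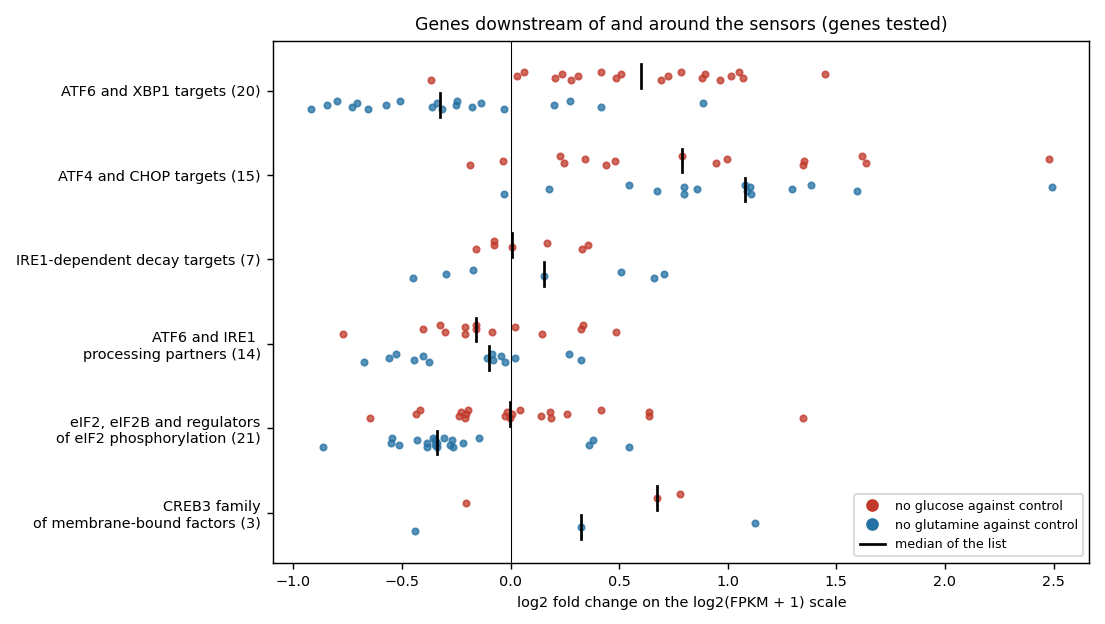
Log2 fold change against control (horizontal axis) of each tested gene of 6 lists around the sensors, without glucose (red) and without glutamine (blue); black bars are list medians and the number of genes tested is in brackets. Medians of the ATF6 and XBP1 targets are 0.60 and -0.33, and those of the ATF4 and CHOP targets 0.79 and 1.08.

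Among the factors that process the sensors or work beside them, 14 of 15 were tested, ERN2, the relative of ERN1 in gut epithelium, being at or below 0.0226 FPKM. Without glucose 3 were higher and 8 lower, where 26.6% and 28.2% of all genes were (median -0.16). The 8 lower became 1 when scaled to the total, 5 without control replicate 1 and 4 without control replicate 2. MBTPS2, a Golgi protease that cleaves ATF6, rose from 3.80 ± 0.271 to 5.71 ± 0.268 FPKM, and FAM98B, of the tRNA ligase complex, rose by 0.33 ± 0.06 log2 (adjusted p = 0.00318, or 0.0645 without control replicate 2). The tRNA ligase gene RTCB, whose product joins the exons of XBP1, fell from 57.6 ± 0.0508 to 43.3 ± 1.37 FPKM, a call lost under scaling to the total (adjusted p = 0.140). TRAF2, an adaptor that binds activated IRE1, fell from 8.39 ± 0.363 to 4.50 ± 0.0310 FPKM. Without glutamine 2 were higher, MBTPS2 (0.33 ± 0.07 log2) and FAM98B (0.27 ± 0.08), and 6 lower, where 24.7% and 26.3% of all genes were (median -0.10). When scaled to the total 2 were higher and 0 lower (median 0.17, all genes 0.30). Without control replicate 1 neither rise was called (adjusted p = 0.0663 and 0.0941). CISD2, the gene mutated in another form of Wolfram syndrome, changed by -0.67 ± 0.06 log2, with an adjusted p of 0.0687 under scaling to the total. RTRAF, a partner of RTCB, changed by -0.56 ± 0.05, with 0.276 there.

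Of 7 mRNAs known to be cut by IRE1 itself, 3 were higher and 0 lower without glucose (median 0.01), where 26.6% and 28.2% of all genes were. The 3 became 1 without the filter or when either control library was left out. Without glutamine 3 were higher and 2 lower, where 24.7% and 26.3% of all genes were (median 0.15). Without control replicate 1 this was 2 higher and 1 lower. BLOC1S1, the best known of them, stood at 18.0 ± 0.310 FPKM in control, 17.1 ± 1.24 without glucose (adjusted p = 0.331) and 12.9 without glutamine (-0.45 ± 0.08 log2, adjusted p = 0.00181). The latter call was lost under scaling to the total (adjusted p = 0.501). HGSNAT, a lysosomal enzyme gene, rose in both, by 0.35 ± 0.06 and 0.71 ± 0.07 log2. The collagen gene COL6A1 rose by 0.33 ± 0.07 and 0.66 ± 0.09, the former not called without control replicate 1 (adjusted p = 0.105) or control replicate 2 (0.0739) and the latter not without the filter (0.0529). ERGIC3, which acts in transport between ER and Golgi, was called higher without glucose (0.17 ± 0.05, adjusted p = 0.0246). Without glutamine it was called lower (-0.30 ± 0.06, adjusted p = 0.00557), but was at 0.01 (0.981) when scaled to the total.

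The list of eIF2, its exchange factor eIF2B and regulators of eIF2 phosphorylation had 7 of 21 genes higher and 8 lower without glucose (median 0.00), near the 26.6% and 28.2% of all genes. That was 5 higher and 1 lower when scaled to the total, 4 and 6 without control replicate 1, and 5 and 3 without control replicate 2. Without glutamine 3 were higher and 17 lower, where 24.7% and 26.3% of all genes were (median -0.34). When scaled to the total 1 was lower (median -0.04, all genes 0.30). EIF2S1, which encodes eIF2 alpha, the substrate of all 4 kinases, fell in both: from 31.3 ± 0.639 FPKM to 19.7 ± 0.173 without glucose and 16.8 without glutamine (adjusted p = 1.86e-05 and 3.1e-05). EIF2A, which encodes an unrelated initiation factor, rose without glucose (0.64 ± 0.04 log2) and changed by -0.35 ± 0.05 without glutamine. Of the catalytic subunits of protein phosphatase 1, PPP1CA changed by -0.43 ± 0.07 without glucose and PPP1CB by -0.55 ± 0.05 without glutamine, with adjusted p-values of 0.0907 and 0.349 when scaled to the total. GCN1, the activator of GCN2 on the ribosome, rose without glutamine from 31.1 ± 0.170 to 40.7 FPKM (0.38 ± 0.05 log2, adjusted p = 0.000754). It was also called higher without glucose, at 35.4 ± 1.31 FPKM (0.18 ± 0.04 log2, adjusted p = 0.00871). EIF2AK4 passed the test against control in neither deprivation.

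Of the CREB3 family, membrane-bound factors that are cleaved like ATF6, 3 of 5 genes were tested. CREB3L2 rose from 6.97 ± 0.415 FPKM to 12.7 ± 0.532 without glucose and 16.4 without glutamine (0.78 ± 0.05 and 1.12 ± 0.06 log2, adjusted p = 2.35e-05 and 3e-05). CREB3L4 rose without glucose (0.67 ± 0.10 log2, adjusted p = 0.000855, or 0.0547 without the filter), and CREB3 changed by -0.21 ± 0.05 and -0.44 ± 0.06, with adjusted p-values of 0.631 and 0.550 when scaled to the total and, without glucose, 0.0783 and 0.0766 without control replicate 1 or 2. CREB3L3 was listed at 0 in every library and CREB3L1 was at or below 0.844 FPKM.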

How the data were processed

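Total RNA depleted of ribosomal RNA was sequenced, per the labels' protocols. HISAT2 2.0.5 and StringTie on hg38 are named in the submitters' processing notes; the annotation and whether counting used strand are not given. FPKM is the unit inferred for the deposited values, from their size and fractions, as the headers state none. A column headed as a glucose library stands in the table of glutamine deprivation, so 1 value column was left unmapped and 5 of the 6 labelled libraries were used. Depth was inferred from low values of single-exon genes, of which 95.1% to 95.8% were whole reads within 0.05.

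FPKM were divided by trimmed-mean factors (30% of ratios and 5% of abundances trimmed at each end). Genes with at least 1 scaled FPKM in at least 1 library were tested on log2(FPKM + 1) in R 4.3.3 with limma 3.58.1, using 1 coefficient per group, 2 residual degrees of freedom, a variance trend over inferred reads (GENCODE release 29 exon lengths) and Benjamini-Hochberg adjustment, two-sided, at 0.05. The fit was also run on simulated data in which few genes changed and all libraries had the same spread. That run is no check on the scaling or on the spread of the library without glutamine. Members and lists were chosen with earlier results of these data known. Every member is named. List genes named are the 2 with the largest called rise and the 2 with the largest called fall in each deprivation against control, with these exceptions. PDIA6, SSR1 and genes at or near 0 were named after their values were seen. CALR, CRELD2 and HSP90B1 were named because their windows held the ERSE. Alternatives covered scaling, pseudocount, filter, variance trend, replicate block and left-out libraries.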

Additional observations from a re-analysis of the deposited data

How the results depend on the processing

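Of 22 calls among the 30 gene comparisons, 5 held in every alternative run: XBP1, ATF6 and EIF2AK3 without glucose, ERN1 without glutamine, and EIF2AK3 between the deprivations. The median log2 change of all genes without glutamine was 0.05 here, 0.17 without a factor, -0.09 under upper-quartile and 0.30 under total scaling, with 48.4%, 67.4%, 31.2% and 91.1% of calls higher (without glucose 48.5%, 54.2%, 38.9% and 67.8%, between the deprivations 50.5%, 68.2%, 38.5% and 85.6%).

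Members called without glutamine numbered 4 under upper-quartile scaling (52.2% of all genes called there), 3 without the filter (21.9%) and 3 to 7 with a library left out (33.1% to 51.5%), against 7 (51%) here. Between the deprivations 5 were called under upper-quartile scaling (45.5%), 3 under total scaling (25.2%), 3 without the filter (17.4%), 5 with the variance trend over the mean level (36.2%), 5 with only the 2 groups compared (34.5%) and 5 to 7 with a library left out (32.1% to 37.6%), against 9 (44.5%) here. Without glucose 54.8% of all genes were called here and 18.5% without the filter. Genes called numbered 5504 without glucose and 4266 between the deprivations under total scaling, and with a library left out 5649 to 9071 without glucose and 5477 to 8424 without glutamine.

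Some signs turned, including those of EIF2AK1 and ERGIC3 without glutamine, which were called here at 0.16 and -0.30. The cause was not tested. Without a factor EIF2AK2 was 0.0311 without glucose and PPP1R15B 0.1583 without glutamine. Under upper-quartile scaling WFS1 was -0.0068 without glucose, and ATF6, EIF2AK1 and EIF2AK4 were -0.1282, -0.0015 and -0.0758 without glutamine. Under total scaling EIF2AK1 and EIF2AK2 were 0.0501 and 0.0938 without glucose, and PPP1R15B and ERGIC3 0.3094 and 0.0079 without glutamine. With a library left out EIF2AK2 ranged from -0.0603 to 0.0523 without glucose and ATF6 from -0.0251 to 0.0473 without glutamine.

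Deviations of replicate 1 from its group mean hardly correlated across genes between control and glucose deprivation (r = -0.022). This value cannot tell whether the cultures were paired. With a replicate block 5, 6 and 6 members were called without glucose, without glutamine and between the deprivations. Of all genes, 53%, 45.3% and 38.1% were called there. ATF6 was then at -0.0095 without glutamine. The comparisons with glutamine deprivation have no value without its only library.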
